A study of Rattus norvegicus with 9 samples.

Results

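The miRNA described is rno-miR-21-5p of the rat, together with every tag (distinct read sequence) that was deposited under its name. Members were chosen by name: the row rno-miR-21-5p, 1 of 201 miRNA names in the table of the whole series, and all tags in the files of the libraries whose assignment is a miR-21 name ending in mature or hairpin. This gave 27 tags of 3334 miRNA tags, with 30399 reads over 9 libraries. The measured values used in the choice were the assignment and the mismatch score of each tag, so the split between mature and hairpin tags is given as a description. All 27 tags carried the name of the 5p arm.

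Small RNA was sequenced from exosomes, the small vesicles that cells release, of primary peritoneal macrophages lavaged from untreated rat and kept in medium with 10% FBS. There were 3 libraries in each of 3 groups. In Control the cells were kept in 0.1% DMSO for 24 h. The LPS group was exposed for 6 h to 100 ng/ml of lipopolysaccharide (LPS), a bacterial cell wall component. The LPS+AS-IV group had 24 h of astragaloside IV (150 µM), a plant saponin, and then the same exposure to LPS. LPS and astragaloside IV were both dissolved in DMSO per the labels, which state its final concentration for Control only. The labels leave unsaid whether the libraries of a group stem from different animals or cultures and whether the serum was freed of vesicles, so p-values measure the spread between these libraries, which may be technical.

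A mature miRNA is cut from a hairpin precursor by Drosha and Dicer, and its seed, bases 2 to 8, chooses its targets. Reads of the same miRNA often differ by a base or so at the 3′ end, and such forms are called isomiRs. miR-21 is an abundant miRNA of macrophages and fibroblasts. It is known to restrain Pdcd4 and is studied in inflammation and in fibrosis, including that of the peritoneum.

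The reference sequences are shown because the tags differ from them almost only at the 3′ end. In RefSeq (build GRCr8) the miR-21 hairpin of 92 nt lies on the minus strand at chr10:71902600-71902691, as the miRNA gene Mir21, next to the protein-coding gene Vmp1 on one side and Tubd1 on the other. The mature miR-21-5p of 22 nt lies at chr10:71902653-71902674. The submitters' processing notes name Rnor_6.0, a different build, so these coordinates serve only to place the gene. In the hairpin the capitals mark the mature 5p and 3p arms, and in the mature sequence they mark the seed. Of 693 mature names in that RefSeq set, miR-21-5p alone has this seed.
Hairpin: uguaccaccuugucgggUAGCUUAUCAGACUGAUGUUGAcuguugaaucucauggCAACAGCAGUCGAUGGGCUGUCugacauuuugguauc
rno-miR-21-5p: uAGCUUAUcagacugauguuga

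The tags that carried nearly all reads are shown next, with capitals for the bases from position 21 of the tag onward, where they differ.
23 nt tag: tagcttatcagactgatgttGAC
21 nt tag: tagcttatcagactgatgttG
22 nt tag: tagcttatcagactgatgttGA
20 nt tag: tagcttatcagactgatgtt
22 nt tag with A22T: tagcttatcagactgatgttGT
23 nt tag with C23A: tagcttatcagactgatgttGAA

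Most miR-21 reads were not the mature sequence but the same sequence with the next hairpin base added. The 23 nt tag held 26734 reads over the 9 libraries, 87.9% of the total. The 21 nt tag, which lacks the last base, held 1788 reads (5.88%), and the 22 nt tag, which is the mature sequence, held 1679 (5.52%). The 20 nt tag held 40 reads. The 23 nt tag was the most abundant one in each of the 9 libraries.

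The deposited table counted only the 22 nt form, along with 4 reads of a 23 nt tag with C23G. Those 2 tags had a score of 0 and were called mature, with 1683 reads, and the table's value for miR-21-5p equalled their sum in 9 of 9 libraries. The other 25 tags had a score of 1 and were called hairpin. They held 28716 reads, 94.5% of all miR-21 reads, and stayed outside the table. A score of 1 rarely meant a changed base: 4 of the 25 tags, the 20, 21 and 23 nt tags above and a 21 nt tag starting 1 base inside the mature 5′ end, were identical to a stretch of the RefSeq hairpin, and they held 99.5% of the reads with that score. The rule by which tags were scored was not among the sources.

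Real base differences were few among the named tags. There were 15 tags with 1 different base inside the sequence, and they had 17 reads in all, at most 2 per tag. A different last base was found in 6 tags with 134 reads. Positions are counted from 1 at the 5′ end of the mature sequence, and 23 and 24 are the hairpin bases that follow it. The A22T tag had 29 reads in Control 1, 43 in Control 3 and 0 in the other 7 libraries. The C23A tag had 26 reads, in Control 2 alone. By contrast the C23T tag was present in each of the 9 libraries, with 1 to 4 reads each. A count of 0 allows up to 3 reads.

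The 5′ end, which sets the seed, hardly varied among the tags under the miR-21 name. Apart from 4 reads in LPS+AS-IV 1 that start 1 base inside the mature sequence, each of the 30399 reads began at the mature 5′ end. The passenger arm was not seen: no tag under a miR-21 name or under the Rfam family described below held 12 consecutive bases of miR-21-3p, which allows up to 3 reads in a library.

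Control libraries 1 to 3 held 2372, 1348 and 3539 reads of the 23 nt tag, LPS libraries 1262, 1727 and 4221, and LPS+AS-IV libraries 656, 3559 and 8050. The tag made up 88.2% ± 1.01 of miR-21 reads under Control, 90.7% ± 3.07 under LPS, and 87.8% ± 5.32 with astragaloside IV added (SD, n = 3 each). Its share lay between 82.4% and 93.8% in the 9 libraries, and the groups overlapped. Reads of the 21 nt tag numbered 159, 45 and 202 for the Control libraries, 76, 239 and 122 for LPS, and 16, 315 and 614 for LPS+AS-IV. Its share was 4.62% ± 1.48, 6.80% ± 4.85 and 5.42% ± 2.75 in the same order (SD, n = 3 each). LPS 2 had the highest share of this tag, 12.1%.

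The 22 nt tag, the one the table counts, behaved differently from the others in 2 of the LPS libraries. Control libraries had 119, 82 and 231 reads of it, LPS libraries 5, 3 and 297, and LPS+AS-IV libraries 21, 428 and 493. LPS 1 and LPS 2 were far below the other 7 libraries, while LPS 3 was above each Control library. Per read of the 22 nt tag there were 19.9, 16.4 and 15.3 reads of the 23 nt tag in Control libraries. The same ratio was 252, 576 and 14.2 for the LPS libraries and 31.2, 8.32 and 16.3 for the LPS+AS-IV libraries.

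**Figure D1:**
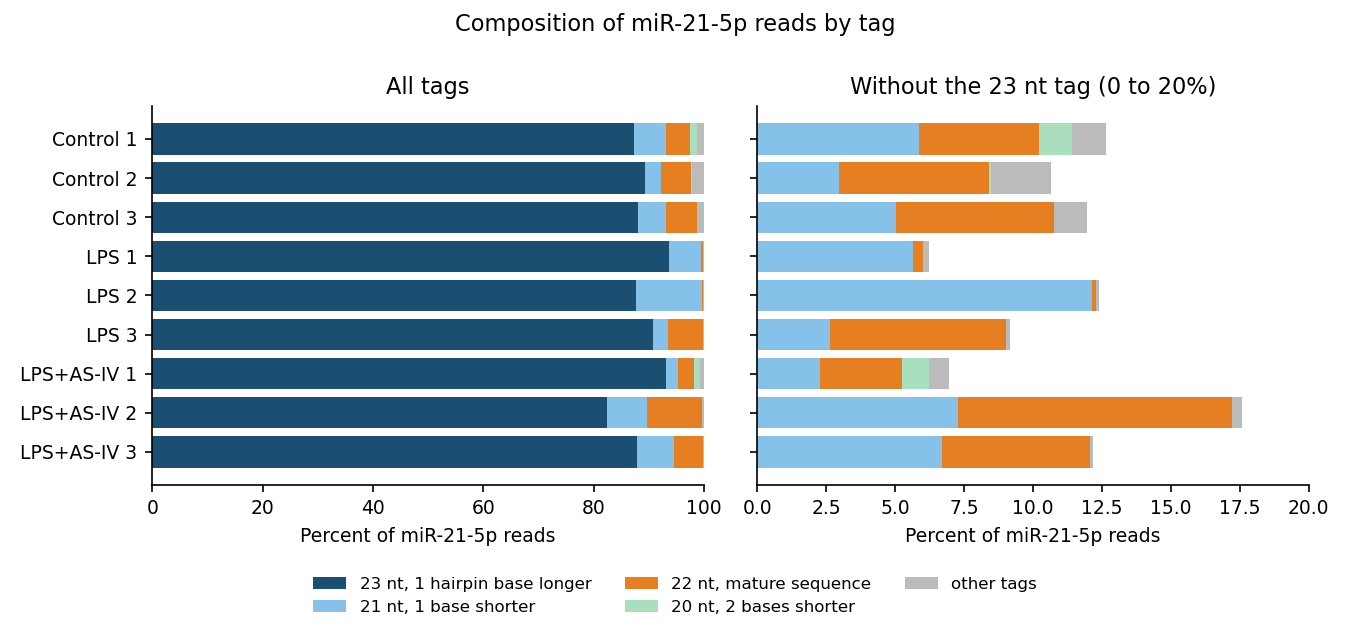
Composition of miR-21-5p reads in each library, as stacked percentages of its mature and hairpin reads (left, 0 to 100%; right, the same without the 23 nt tag, 0 to 20%). The 23 nt tag holds 82.4% to 93.8% of the reads, and the 22 nt mature sequence is nearly missing in LPS 1 and LPS 2.

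As a share of miR-21 reads, mature tags made up 4.42%, 5.50% and 5.75% in Control. In LPS they made up 0.371% (95% Wilson interval 0.159 to 0.867), 0.203% (0.0789 to 0.521) and 6.41% (5.74 to 7.15). In LPS+AS-IV they made up 2.98% (1.96 to 4.51), 9.91% (9.05 to 10.8) and 5.38% (4.94 to 5.86). The intervals of LPS 1 and LPS 2 lie below those of the other 7 libraries, but they cover counting error only. The reads may include PCR copies of a molecule. The library as a whole did not show this split. Over all miRNAs, mature tags made up between 54.1% and 58.02% of mature and hairpin reads in each library, with 57.6% in LPS 1 and 56.5% in LPS 2.

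The group means of the hairpin share were 94.8% ± 0.707 for Control, 97.7% ± 3.54 for LPS, and 93.9% ± 3.52 for LPS+AS-IV (SD, n = 3 each). The ranges of the 3 groups overlapped. A two-sided exact permutation test was run on the share of the most abundant tag, of the common 5′ end, of longer and of shorter reads, and on mean read length. With 3 libraries against 3 the smallest p possible is 0.1. Among tags under the miR-21 name, none of these 15 tests reached it, each adjusted p was 1 (Benjamini-Hochberg), and the groups overlapped in each. The tests of the 5′ end could show nothing, because its share was 100% in every library but LPS+AS-IV 1 (99.4%). Nearly all longer reads were the 23 nt tag, so their share nearly repeats that of the most abundant tag. Mean read length was 22.84 ± 0.0454 nt for Control, 22.84 ± 0.0734 nt for LPS, and 22.82 ± 0.0659 nt for LPS+AS-IV (SD, n = 3 each).

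**Figure D2:**
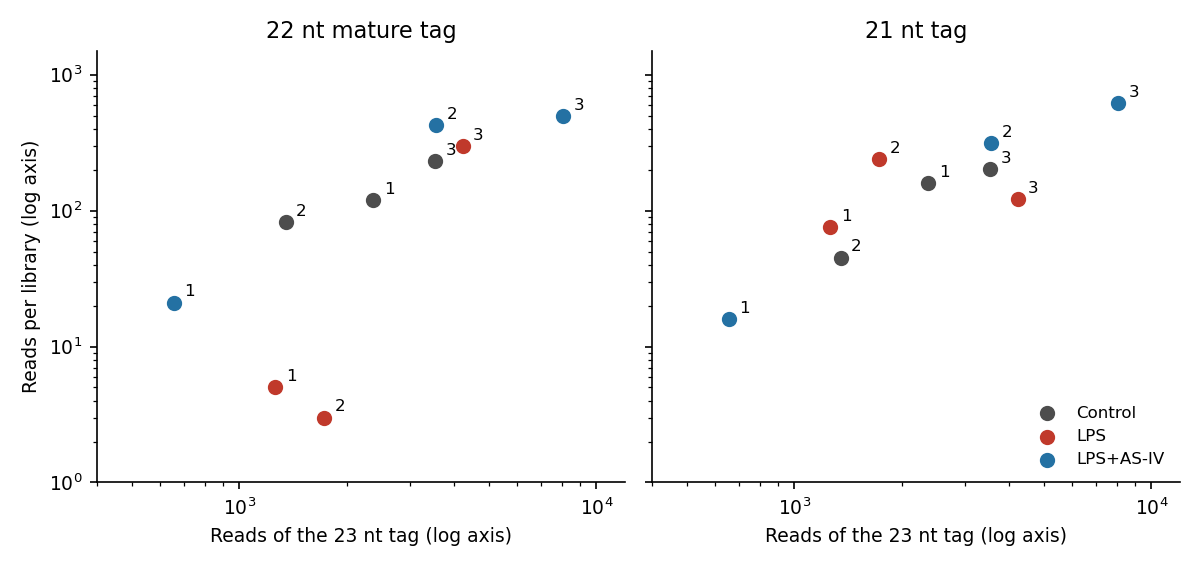
Reads of the 22 nt mature tag (left) and of the 21 nt tag (right) against reads of the 23 nt tag, 1 point per library numbered by replicate, all axes logarithmic. LPS 1 and LPS 2 lie far below the other libraries for the 22 nt tag, with 5 and 3 reads, but not for the 21 nt tag, with 76 and 239.

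Levels followed from which tags were counted. The deposited table gave miR-21-5p 120, 83 and 231 reads for the Control libraries, 5, 4 and 298 for LPS, and 21, 428 and 493 for LPS+AS-IV. The table's reads of all miRNAs per library ranged from 15426 to 546599, both extremes being LPS+AS-IV libraries (1 and 3), and all assigned reads from 3484099 to 9527483. In CPM (counts per 1e6 reads of library size, scaled with edgeR's TMM factors) its level was 2591, 2479 and 3104 for Control, 179.9, 68.5 and 4778 for LPS, and 1515, 6524 and 985 for LPS+AS-IV. The LPS group held both the 2 lowest libraries and the next to highest one, and it overlapped both other groups.

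With mature and hairpin tags summed, the Control libraries had 2716, 1509 and 4020 reads of miR-21-5p, those of LPS 1346, 1971 and 4647, and those of LPS+AS-IV 705, 4319 and 9166. The level from these sums was 32729, 26372 and 31708 CPM for Control, 30051, 18917 and 42035 CPM for LPS, and 27975, 31607 and 10471 CPM for LPS+AS-IV. LPS 1 now lay among the Control libraries, and LPS+AS-IV 3, the library with the most miRNA reads, was the lowest of the 9. The ranges of the 3 groups overlapped.

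The rank of miR-21-5p among the miRNAs of a library changed with the counting. In the table it ranked between 26 and 77 over the 9 libraries, with ranks of 77 and 75 in LPS 1 and LPS 2. With hairpin tags added it ranked between 6 and 22. It held 0.00609% to 0.622% of the table's reads, and 0.9504% to 4.21% of the mature and hairpin reads of a library.

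Against all assigned reads of every RNA class, and with no TMM factor, the summed reads came to 376, 277 and 489 CPM for Control, 145, 566 and 520 CPM for LPS, and 74.0, 475 and 1368 CPM for LPS+AS-IV. LPS+AS-IV 3 was the highest library on this scale and the lowest as a share of miRNA, so its place depends on the denominator.

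**Figure D3:**
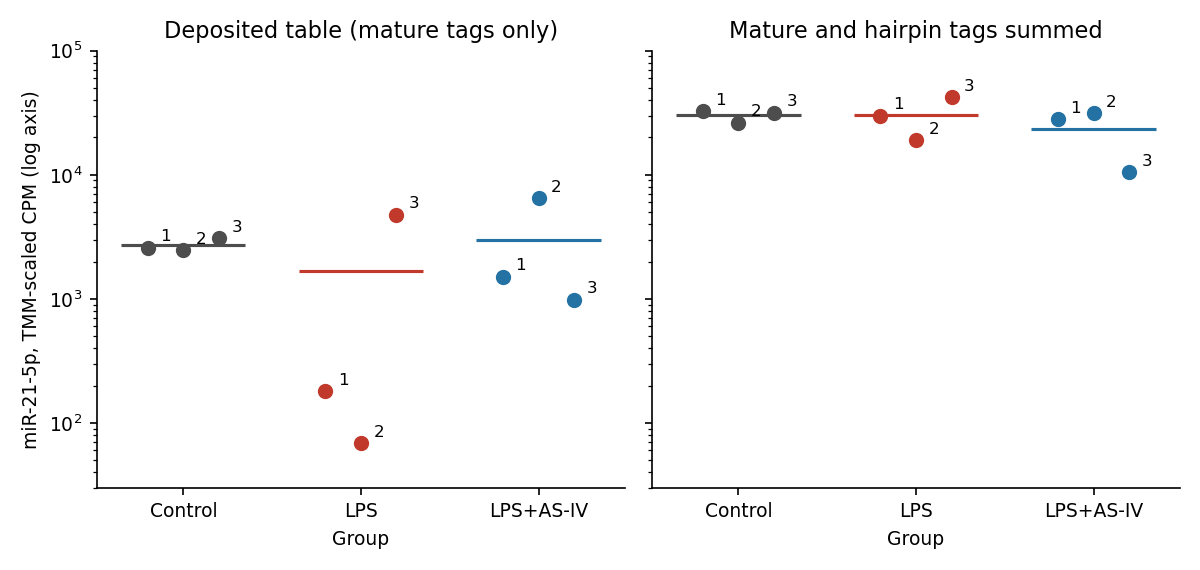
Level of miR-21-5p in TMM-scaled CPM on a logarithmic axis, from the deposited table (left) and from mature and hairpin tags summed (right), 1 point per library numbered by replicate, with a line at the group mean. In the table LPS 1 and LPS 2 lie at 179.9 and 68.5 CPM, and with the tags summed at 30051 and 18917 CPM.

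LPS against Control asks what LPS did to this miRNA of the exosomes. In the table its level was 1675 ± 2687 CPM in LPS and 2725 ± 334 CPM in Control (SD, n = 3 each), a log2 fold change of -0.70 (SE 1.49, edgeR adjusted p = 0.964). miR-21-5p was not called, in a comparison where 1.06% of 94 tested miRNAs were. With mature and hairpin tags summed the level was 30334 ± 11562 CPM and 30269 ± 3414 CPM (SD, n = 3 each), a log2 fold change of 0.00306 (SE 0.43, edgeR adjusted p = 0.998). In those counts 0.775% of 129 tested miRNAs were called, and miR-21-5p was not among them. LPS 3 decided the table's value: without it the log2 fold change was -4.35 (SE 1.76, unadjusted p = 0.0274, edgeR adjusted p = 0.677, with a range of 0.677 to 1 over the alternatives), and without LPS 2 it was 0.06. The summed value without LPS 3 was -0.25.

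The comparison of LPS+AS-IV with LPS addresses the saponin given ahead of LPS. For the LPS group the labels name no matching 24 h step, so the saponin and that step cannot be told apart. In the table the level was 3008 ± 3057 CPM in LPS+AS-IV beside 1675 ± 2687 CPM in LPS, with a log2 fold change of 0.84 (SE 1.49, edgeR adjusted p = 0.963). Summed, it was 23351 ± 11301 CPM beside 30334 ± 11562 CPM, with a log2 fold change of -0.38 (SE 0.43, edgeR adjusted p = 0.9995). The direction differed between the 2 ways of counting, and neither difference exceeded the spread between libraries. edgeR called 0% of 94 miRNAs from the table, where 3 were under 0.05 by unadjusted p and 1 was called by DESeq2, and 0% of 129 from the sums, where 5 had an unadjusted p under 0.05. Without LPS 3 the table gave 4.44 (edgeR adjusted p = 0.716, with a range of 0.651 to 1 over the alternatives), without LPS 2 it gave 0.04, and without LPS+AS-IV 2 it gave -0.37. The summed value was 0.02 without LPS+AS-IV 3.

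LPS+AS-IV against Control asks what differed after both treatments. In the table the log2 fold change of miR-21-5p was 0.14 (SE 1.48, edgeR adjusted p = 0.981), where 2.13% of the miRNAs were called. Without LPS+AS-IV 2 it was -1.10, and without LPS 1 it was -0.07. Summed, it was -0.37 (SE 0.43, edgeR adjusted p = 0.993), where 1.55% were called, and without LPS+AS-IV 3 it was -0.02. The comparisons share libraries pairwise, so they are not independent.

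**Figure D4:**
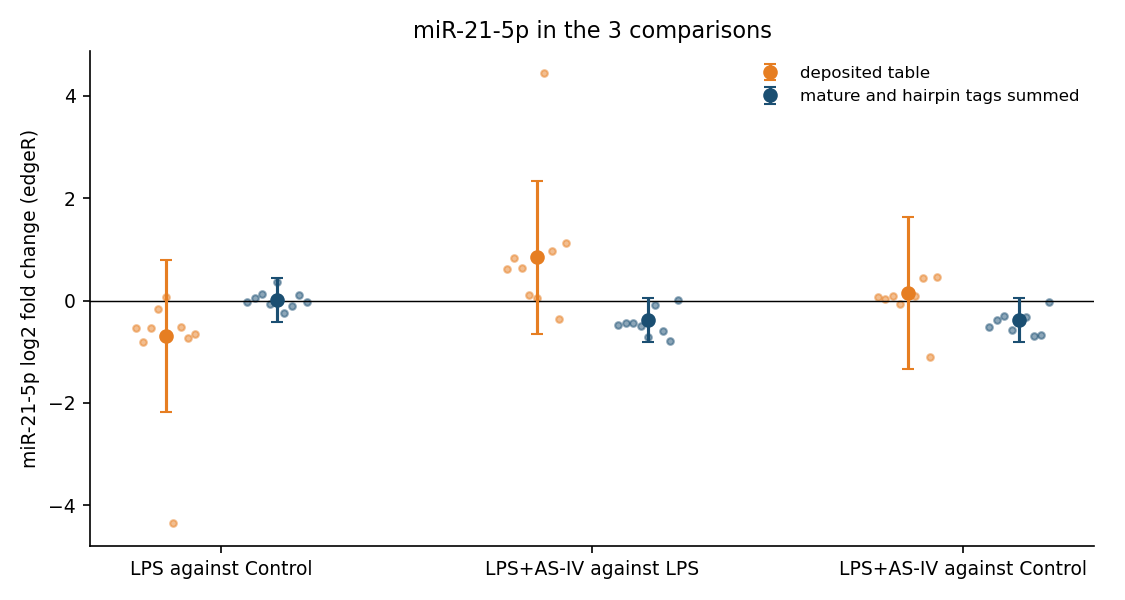
Log2 fold change of miR-21-5p by edgeR in each comparison, from the deposited table and from mature and hairpin tags summed. Large points are the fits on 9 libraries with bars of 1 SE, and small points leave out 1 library each. The table's values run from -4.35 to 4.44 with a library left out, the summed ones from -0.79 to 0.36.

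Hairpin tags weighed more on miR-21-5p than on most other miRNAs, as a description. Of 85 miRNAs with at least 1000 mature and hairpin reads over the 9 libraries, 14 had over 90% of them in hairpin tags, and miR-21-5p, at 94.5%, came in at rank 13. The median was 47.8% over the 85. These shares pool the reads of the 9 libraries, and LPS+AS-IV 3 weighs most. It had 546599 table reads and 417820 hairpin reads of all miRNAs, beside medians of 61579 and 48813 over the 9. Some of the 14, such as miR-133a-3p and miR-188-5p, had at least 100 reads in only 1 library. For miR-21-5p the share was 90.1% to 99.8% in each library. Among the 20 miRNAs with the most reads, the only one above miR-21-5p was the name miR-3596c, at 99.4%. miR-92a-3p, of the miR-17-92 cluster, had 59.4%. For 18 of the 85, the most abundant tag was the RefSeq mature sequence with bases added, as for miR-21-5p. For 35 it was the mature sequence itself, for 12 a shortened one and for 10 another form, and 10 had no RefSeq sequence of that name.

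**Figure D5:**
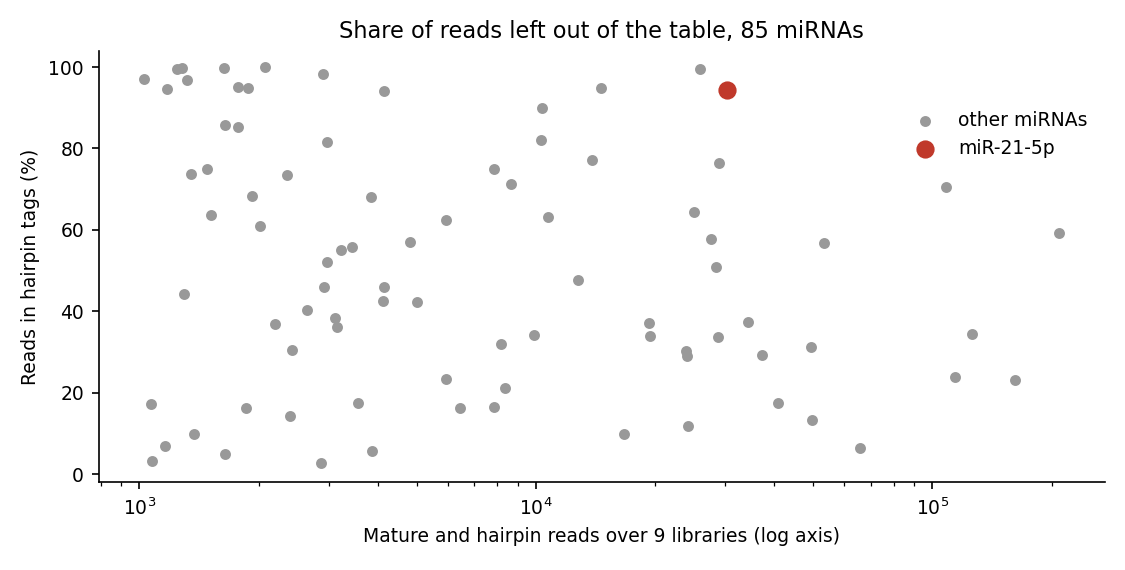
Percent of mature and hairpin reads that lie in hairpin tags, and so outside the table, for 85 miRNAs against their reads over the 9 libraries (logarithmic axis). miR-21-5p has 30399 reads and 94.5% of them in hairpin tags, above the median of 47.8%.

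Further miR-21 reads stood under the Rfam family RF00658, which is no miRNA name in the files. It held 105 tags and 2135 reads, which is 6.56% of the 32534 reads under either label. Of these, 102 tags with 2123 reads could be placed on miR-21-5p, with at least 14 of their first 18 bases matching at a start within 2 bases of the mature one. The share was 5.09% ± 3.57 for Control, 5.23% ± 3.74 for LPS, and 5.50% ± 3.77 for LPS+AS-IV (SD, n = 3 each), and the library shares ranged from 1.11% to 8.50%. Of the reads under either label, the table counted 5.17%. The Rfam tags with the most reads of a plain 3′ or 5′ variant are shown because they extend the series above, again with capitals from position 21.
24 nt tag with T24A: tagcttatcagactgatgttGACA
24 nt tag: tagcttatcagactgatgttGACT
22 nt tag, start shifted by 1: agcttatcagactgatgttgAC

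The 24 nt tag with T24A, in which the last base is not that of the hairpin, had 196, 0 and 131 reads for Control, 59, 1 and 69 for LPS, and 0, 48 and 0 for LPS+AS-IV. For the 24 nt tag identical to the hairpin the reads were 0, 0 and 105 for Control, 0, 0 and 62 for LPS, and 1, 42 and 1 for LPS+AS-IV. The tag with the shifted start, whose bases 2 to 8 are not those of the mature seed, had 0, 0 and 9 reads for Control, 27, 0 and 0 for LPS, and 0, 75 and 199 for LPS+AS-IV. Each of these was absent from at least 3 libraries, unlike the exact 21, 22 and 23 nt forms, which were found in each. Of the 105 Rfam tags, 44 had 1 inner base different, with 903 reads. The 3 tags that could not be placed had 12 reads, and 10 of them were a 30 nt tag of LPS 1 that shared 25 bases in a row with the opposite strand of the hairpin.

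The 5′ end varied more once these tags were added. Among the 102 placed tags, 13 with 373 reads started away from the mature 5′ end. With both kinds of tag, the common 5′ end made up 100%, 99.9% and 99.7% of reads for Control, 98.2%, 100% and 99.03% for LPS, and 99.4%, 98.3% and 97.96% for LPS+AS-IV. Each LPS+AS-IV library was below each Control library, a difference of -1.32 percentage points, with a two-sided exact permutation p of 0.1, the smallest possible with 3 against 3. This way of counting was added after the data were seen, and 0.1 does not pass 0.05. The place of LPS+AS-IV 1 below Control rests on 4 reads of 1 tag, where a count of 0 allows up to 3 reads. In LPS+AS-IV 2 and 3 most reads with another 5′ end were 1 tag, with 75 and 199 reads. LPS differed from Control by -0.816 points (exact permutation p = 0.4), with overlap.

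The miRNAs whose levels over the 9 libraries were most like miR-21-5p changed in part with the counting. By Pearson's r of log2 CPM in the table, over 93 other miRNAs with a median r of 0.09, the 5 highest were miR-204-5p (0.81), the myeloid miR-223-3p (0.77), miR-98-5p (0.67), miR-28-3p (0.66) and let-7c-5p (0.66). The table's level of miR-204-5p was 1360 ± 444 CPM for Control, 149 ± 156 CPM for LPS, and 1862 ± 534 CPM with astragaloside IV (SD, n = 3 each). Its log2 fold change was -3.18 in LPS against Control (SE 1.96, edgeR adjusted p = 0.802). In LPS+AS-IV against LPS it was 3.63 (edgeR adjusted p = 0.963). So miR-204-5p was not called in either comparison. With mature and hairpin tags summed its r with miR-21-5p was 0.10, that of miR-223-3p 0.33 and that of miR-28-3p 0.35, while miR-98-5p (0.81) and let-7c-5p (0.85) stayed high. The 5 highest in the sums, over 128 other miRNAs with a median of 0.04, were miR-7a-5p (0.90), miR-146a-5p (0.87), let-7c-5p (0.85), let-7f-5p (0.85) and miR-143-3p (0.85). The 9 points share libraries, depth and scaling factors, and the miRNAs named are the extremes of many, so these values are descriptions.

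miR-21-5p is one of a list of 14 miRNAs that respond to LPS in macrophages, of which 10 had reads in the table and 8 were tested. In LPS against Control, 6 of the 8 had a higher fitted level in LPS and 2 a lower one, miR-21-5p among the latter. Their median log2 fold change was 0.39, beside -0.04 over all 94, of which 47.9% were higher. None passed the test. miR-27a-3p stood at 2143 ± 2380 CPM in LPS and 1668 ± 727 CPM in Control, and miR-223-3p at 1170 ± 2027 CPM and 875 ± 601 CPM (SD, n = 3 each). The largest log2 fold changes were those of miR-155-5p, 3.96 (SE 2.59), and miR-146b-5p, 3.17 (SE 2.72). The other lower member was miR-146a-5p, at 20601 ± 7331 CPM in LPS and 27353 ± 11989 CPM in Control (SD, n = 3 each). Its log2 fold change was -0.41 (SE 0.65) from the table and -0.03 (SE 0.62) from the sums. In LPS+AS-IV against LPS 4 of 8 were higher (median 0.34, beside 0.19 over all, of which 60.6% were higher), and in LPS+AS-IV against Control 7 of 8 (0.66 beside 0.21, with 57.4% of all higher), with none past the test by edgeR. In the sums 10 were tested, and 7, 4 and 5 were higher in the same order of comparisons, beside 53.5%, 50.4% and 55.04% of all 129, none of them past the test.

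A list of 17 miRNAs studied in fibrosis, which also holds miR-21-5p, had 13 members with reads and 7 tested. In LPS against Control 2 of the 7 were higher and 5 lower, with a median log2 fold change of -0.64, beside -0.04 over all. The 2 were miR-34a-5p, which p53 induces, at 10109 ± 3226 CPM in LPS and 4410 ± 1414 CPM in Control, and miR-155-5p, which inflammatory signals induce, at 3985 ± 4072 CPM and 259 ± 448 CPM (SD, n = 3 each). The gap for miR-155-5p changed with the counting. With hairpin tags added it stood at 4819 ± 4481 CPM in LPS and 1815 ± 1002 CPM in Control (SD, n = 3 each). Its log2 fold change was 3.96 from the table and 1.41 from the sums. The lowest of the 5 lower members was miR-204-5p, at -3.18 (SE 1.96) from the table. In LPS+AS-IV against LPS 5 of 7 were higher (median 0.82, beside 0.19 over all, of which 60.6% were higher). In LPS+AS-IV against Control it was 6 of 7 (0.45 beside 0.21, with 57.4% of all higher). None passed. With mature and hairpin tags summed, 8 were tested. Of these 6 were higher in LPS than in Control (median 0.46, beside 0.06 over all 129, of which 53.5% were higher), 3 in LPS+AS-IV than in LPS (-0.14 beside 0.01, with 50.4% higher) and 6 in LPS+AS-IV than in Control (0.63 beside 0.07, with 55.04% higher). Again none passed, and with 7 or 8 members these counts are read as description only.

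As to the labelled cell type, the 3 myeloid markers miR-223-3p, miR-142-5p and miR-142-3p held 0% to 0.432% of the table's reads in a library, with miR-142-3p not among the names of the table. The 3 lymphocyte markers miR-150-5p, miR-342-3p and miR-181a-5p held 9.54% to 19.3%. Most of these reads were miR-181a-5p, with 124482 mature reads over the 9 libraries beside 33714 of miR-150-5p and 1555 of miR-342-3p. The table left out 52.2% of the mature and hairpin reads of miR-223-3p and 23.1% of those of miR-181a-5p, so the lists are not measured alike. The 3 erythroid markers held 4.07% to 4.78% in Control, 2.72% to 3.97% in LPS and 3.04% to 3.54% in LPS+AS-IV, so both treated ranges lay below that of Control. The ranges of lymphocyte markers were 12.5% to 16.1% in Control, 14.3% to 17.4% in LPS and 9.54% to 19.3% in LPS+AS-IV. The 3 smooth muscle and fibroblast markers held at most 0.323%, and the 5 epithelial and mesothelial markers, of which 4 had reads, at most 0.137%. The 2 endothelial markers, the arms of miR-126a, held 0.745% to 1.38% in Control, 0.195% to 0.472% in LPS and 0.415% to 1.23% in LPS+AS-IV, so the LPS range lay below that of Control. The 2 liver and serum markers held 0.143% to 0.356%, 0.320% to 1.02% and 0.465% to 0.558% in the same order, so the range of LPS+AS-IV lay above that of Control. Between all other pairs of groups, and for all other marker lists, the ranges overlapped. Differences between these ranges were not tested, and ranges of 3 libraries can part by spread alone. They rest on mature tags only, which left out 70.7% of the reads of the erythroid miR-451-5p. The part of other cells, or of serum, in the miR-21 levels was not tested. In exosomes from a culture, fewer vesicles and less RNA per vesicle cannot be told apart.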

How the data were processed

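The authors deposited a table of read counts for 201 mature miRNAs in 9 libraries, whole numbers without normalization per the file headers. They also deposited, for each library, the count of every distinct tag of 15 to 45 nt with 1 assignment and a score, per the file headers the number of mismatches for miRNA tags and a family score for Rfam. A further deposited column per library in the table, headed exp, held whole-number counts that never exceeded the reads. Its derivation, the miRBase release and the trimming are unstated. The submitters' processing notes list Bowtie2 and Rnor_6.0 with no role. The members and lists were chosen with earlier results of these data known.

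Tags named miR-21 were compared letter by letter with the RefSeq hairpin (GRCr8). Counts of all miRNAs in the table of the 9 libraries were fitted by group with the quasi-likelihood method of edgeR 4.0.16 (in R 4.3.3), after filterByExpr at its defaults and TMM scaling. A call needs a p below 0.05 after Benjamini-Hochberg adjustment. The fit held 94 miRNAs, or 129 with mature and hairpin tags summed. An SE is the absolute log2 fold change over the square root of F. Tag shares were compared by exact permutation tests (SciPy 1.17.1). DESeq2 1.42.0 was an alternative. The scripts were tested on simulated data. Named miRNAs were miR-21-5p with its 6 most abundant tags, the 5 most like it, and members of 2 lists. No pair of libraries of a group held identical values. Assigned reads per library were 3484099 to 9527483.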

Additional observations from a re-analysis of the deposited data

Results flagged for a closer look

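Under the Rfam family RF00658, outside the miRNA names, 3 tags had at least 50 reads in a library of a treated group and 0 reads in each Control library. Tags of Control libraries absent from the treated ones were not searched for. The 23 nt tag with G15T had 579 reads in LPS+AS-IV 3 and 0 in the other 8 libraries. LPS+AS-IV 3 also had the most reads of the exact 23 nt tag, 8050 beside a median of 2372 over the 9 libraries. The 23 nt tag with G15C had 65 reads in LPS 3, 1 in LPS 1 and 0 elsewhere. A 19 nt tag that lacks the last 3 bases of the mature sequence had 74 reads, all in LPS+AS-IV 2. Each rests on 1 library, so no replicate check was possible, and a count of 0 allows up to 3 reads. Among the 23 nt tags of the family with 1 different inner base, G15T and G15C had the most reads, and the next was G3C with 49 reads over 6 libraries, 38 of them in LPS+AS-IV 2.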

How the results depend on the processing

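Whether libraries with the same replicate number are paired is not known. Deviations of same-numbered libraries from their group means correlated between -0.12 and 0.15. Those of differently numbered libraries correlated between -0.18 and 0.23. With 3 libraries in a group, these values cannot decide it. With a replicate block the miR-21-5p log2 fold change was -1.87 in LPS against Control, 2.07 in LPS+AS-IV against LPS and 0.20 in LPS+AS-IV against Control, and none passed. No alternative brought miR-21-5p past the threshold, and the edgeR or DESeq2 adjusted p was at least 0.651 from the table and 0.562 from the sums. The direction turned with tags summed (0.00306, -0.38 and -0.37 in the same order) and, in LPS+AS-IV against Control, with library totals (-0.0121). With 1 library left out the table gave -4.35 to 0.0616, -0.37 to 4.44 and -1.10 to 0.47, and the sums, whose value near 0 in LPS against Control turned without any 1 of 5 libraries, -0.25 to 0.36, -0.79 to 0.016 and -0.70 to -0.02. Scaled to all assigned reads the table gave -0.77, 1.81 and 1.03 in the order above, and the sums gave 0.64 in LPS+AS-IV against LPS and 0.75 in LPS+AS-IV against Control. The cause of these turns was not tested.

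The number of miRNAs called in LPS against Control was 1, and it was 2 with library totals, no filter, the exp column or the block, 3 by DESeq2 and 0 with each tag given to 1 name (1 to 3 with a library left out). In LPS+AS-IV against LPS it was 0, and 1 with no filter, the block or DESeq2 (0 to 1 with a library left out). In LPS+AS-IV against Control it was 2, and 0 with each tag given to 1 name (2 to 3).

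No miR-21 tag changed its assignment between libraries. A limit of 18 to 26 nt removed no miR-21 tag, since all were 20 to 24 nt long, so it could not change the tag shares. With the placed RF00658 tags added, the difference in mean length in LPS against Control turned from 0.00555 to -0.0153 nt, and in LPS+AS-IV against Control it moved from -0.0193 to -0.0826 nt and that of the common 5′ end from -0.189 to -1.32 points. With tags of at least 10 reads only, the difference in the most abundant tag in LPS+AS-IV against Control moved from -0.474 to -0.119 points. With 1 library left out the difference in mean length ran from -0.0158 to 0.0479, from -0.0672 to 0.00712 in LPS+AS-IV against LPS and from -0.0532 to 0.0127 in LPS+AS-IV against Control. In LPS+AS-IV against Control the difference in percentage points ran from -2.42 to 1.04 for hairpin tags, -3.12 to 2.20 for the most abundant tag, -3.79 to 1.57 for longer reads and -0.0844 to 1.97 for shorter ones. For hairpin tags it ran from 1.83 to 4.93 in LPS against Control and -5.80 to -1.85 in LPS+AS-IV against LPS. The shorter reads gave -0.899 to 3.85 and -2.94 to 1.81. The 5 and 4 table reads in LPS 1 and LPS 2 limit every table value of that group.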

Other observations

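A near loss of the mature tag in a library was seen for other miRNAs too. Of 31 miRNAs with at least 100 mature and hairpin reads in each library, 2 had a mature share under 0.1 of the Control mean in LPS 1, miR-21-5p (0.0711 of it) and miR-423-5p. In LPS 2 there were 4, miR-21-5p (0.0389 of it), miR-27a-3p, and the names miR-3596c and miR-3596d. The counts were 0, 1 and 1 in the Control libraries, 1 in LPS 3, and 0, 2 and 2 across the LPS+AS-IV libraries. The median ratio over the 31 lay between 0.956 and 1.05 in each library. miR-27a-3p, of the miR-23a cluster, had a mature share of 0.265% to 32.3% over the 9 libraries. These miRNAs were chosen after their values were seen.

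In the deposited column headed exp, miR-21-5p stood at 115, 78 and 214 for Control, 5, 4 and 265 for LPS, and 21, 390 and 277 for LPS+AS-IV. The value for LPS+AS-IV 3 was 56.2% of its reads, and that of the other 8 libraries was 88.9% to 100% of theirs. Over all miRNAs the exp column held 53.7% of the reads in LPS+AS-IV 3 and 84.8% to 93.97% in the others.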
